A study of Homo sapiens with 19 samples.

Results

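Chemokines are small secreted proteins that call immune cells into tissue, and 9 of them were followed here across single-cell libraries of human liver organoids. The set held CXCL1, CXCL2, CXCL3, CXCL5, CXCL6, CXCL8 and CXCL10 of the CXC family and CCL2 and CCL20 of the CC family. They were matched by Ensembl identifier. All 9 were among the 32703 identifiers present in every deposited matrix. The organoids, abbreviated HLOs by the submitters, were grown from W01, a wild-type human pluripotent stem cell line from WiCell. Their RNA was read in 19 libraries of single cells. Organoids on ultra-low attachment (ULA) plates had no treatment and were collected on day 21 (n = 3) or day 34 (n = 2). Organoids on an orbital shaker (OS) were collected on day 25, in 7 groups of 2 libraries. These were untreated organoids, organoids given the cytokine TGFB1 (a transforming growth factor β, at 10 ng/ml), PA at 500 µM or OA at 500 µM, and a separate control group for each of those treatments. PA and OA are kept as the labels write them. All groups share the same line and genotype, so every value describes 1 line. For TGFB1 and PA, treatment lasted 5 days after 20 days of culture, while the length of the OA treatment is not given in the sources used here. Nothing in the labels says that replicates came from separate cultures, so p-values measure only the spread between these libraries.

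Most CXC members of this set carry a Glu-Leu-Arg (ELR) motif ahead of their first cysteines and attract neutrophils through the receptors CXCR1 and CXCR2. CXCL10 lacks that motif, is a classical interferon target and acts on T cells through CXCR3. CCL2 recruits monocytes through CCR2, and CCL20 draws lymphocytes and dendritic cells through CCR6. In liver disease, epithelial cells, stellate cells and macrophages can all make such chemokines, commonly after NF-κB is activated by TNF, interleukin 1 or microbial products.

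The depth of a library was 7476533 (PA control replicate 1) to 92522222 UMIs (unique molecular identifiers, each counting 1 captured transcript). Of 138053 barcodes, 120240 were kept as cells, with 500 genes or more and mitochondrial UMIs of 20% or less. Any 2 libraries shared at most 43 barcodes. Levels are in CPM, a gene's UMIs summed over a library's cells and scaled to the library's total. Because the chemistry counts 3′ ends, 1 tag a transcript, levels were not divided by gene length. Fold changes and adjusted p-values come from edgeR's quasi-likelihood test with Benjamini-Hochberg adjustment over all genes, and a change was called at an adjusted p under 0.05. To place the chemokines in cells, cells with at least 1 EPCAM UMI and no COL1A2 or COL3A1 UMI were called EPCAM-positive. Cells with at least 1 COL1A2 or COL3A1 UMI and no EPCAM UMI were called COL-positive. EPCAM is an epithelial surface protein and both collagens are fibroblast products. The remaining cells, which held UMIs of both kinds (1.93% to 59.7% of a library's cells) or of neither (0.301% to 44.7%), entered only the all-cell values. CXCL1, CXCL2 and CXCL3 are close paralogues, and how reads fitting more than 1 of them were assigned is not given in the sources used here, so the split between these 3 is uncertain.

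The CXC members other than CXCL10 lie together on chromosome 4, and their promoters share short sequences that are printed here because several of these genes moved together. On GRCh38, in GENCODE v44, these 6 genes span 358678 bases, chr4:73740519-74099196. In order along the chromosome they are CXCL8 (chr4:73740519-73743716, plus strand), CXCL6 (chr4:73836640-73849064, plus), CXCL1 (chr4:73869393-73871308, plus), CXCL5 (chr4:73995642-73998677, minus), CXCL3 (chr4:74036589-74038807, minus) and CXCL2 (chr4:74097040-74099196, minus). CXCL10 lies farther along at chr4:76021118-76023497 (minus). CCL2 is at chr17:34255274-34257208 (plus) and CCL20 at chr2:227805739-227817564 (plus). The RefSeq promoter table (GRCh38.p14), which runs from 250 bases before to 50 after each gene's start, matched 8 of the 9 members, all but CCL2. The pattern GGNNNTTCC, a loose form of the site that NF-κB subunits bind, was searched on both strands and lay in 8 of these 8 promoters, against 17.1% of 35116 promoters of the same length. Its stricter form GGAATTTCC lay in 7 of the 8, against 0.413% of all promoters. The stretches below read 5′ to 3′ along each gene's strand, and capitals mark GGNNNTTCC on either strand and, in CXCL8 and CXCL10, a further motif named afterwards.
CXCL1, chr4:73869293-73869352, plus strand: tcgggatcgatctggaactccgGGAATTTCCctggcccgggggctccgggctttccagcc
CXCL2, chr4:74099236-74099295, minus strand: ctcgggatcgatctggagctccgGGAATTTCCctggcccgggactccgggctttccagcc
CXCL5, chr4:73998718-73998777, minus strand: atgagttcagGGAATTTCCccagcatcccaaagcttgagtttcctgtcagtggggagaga
CXCL6, chr4:73836578-73836637, plus strand: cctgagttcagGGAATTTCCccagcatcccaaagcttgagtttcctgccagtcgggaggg
CXCL8, chr4:73740424-73740498, plus strand: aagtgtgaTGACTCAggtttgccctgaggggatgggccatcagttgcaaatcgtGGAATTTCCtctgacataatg
CXCL10, chr4:76023598-76023727, minus strand: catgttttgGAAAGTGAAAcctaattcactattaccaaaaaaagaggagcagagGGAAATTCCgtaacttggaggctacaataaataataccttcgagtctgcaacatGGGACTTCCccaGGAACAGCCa
CCL20, chr2:227813742-227813801, plus strand: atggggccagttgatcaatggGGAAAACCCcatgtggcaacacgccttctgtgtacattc

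In CXCL1 and CXCL2 a further match of the loose pattern, GGGCTTTCC, is left in lower case near the right end. In CXCL10 the first capitals mark a pattern of the interferon-stimulated response element, which 3.02% of all promoters hold, and the next, GGAAATTCC, is GGAATTTCC on the opposite strand. In CXCL8 the first capitals mark TGANTCA, the pattern of AP-1 factors, which 6.57% hold. CXCL8 and CCL20 also held TATAAA nearer the start, as did 10.7% of all promoters on either strand. Around the shared GGAATTTCC, 48 of 49 bases were the same in CXCL5 and CXCL6, 45 were in CXCL1 and CXCL3, and 21 were in CXCL1 and CXCL5. CCL20 held the loose pattern alone, and the RefSeq start used for it, chr2:227813842, lies inside the GENCODE gene. A match describes these letters and does not show that a factor binds there.

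**Figure D1:**
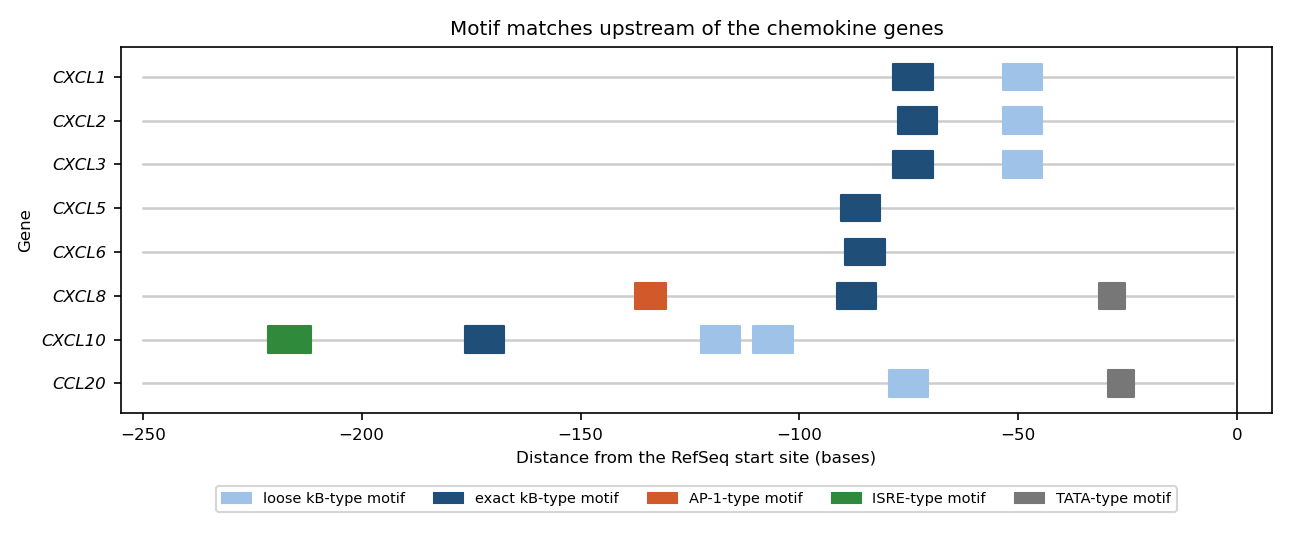
Matches of the searched motifs by distance in bases from the RefSeq start (x axis, 0 is the start) in the promoters of the 8 members in the table (1 row each). CXCL1, CXCL2, CXCL3, CXCL5, CXCL6 and CXCL8 hold GGAATTTCC on the gene's own strand, while the CCL20 row has the loose pattern but no GGAATTTCC.

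Summed over the 9 genes, chemokine RNA was lowest on ULA plates and highest with OA. The ULA matrices list 58721 gene identifiers and the OS matrices share 32732, and the part of this in the levels was not tested. The sum was 47.03 ± 9.69 CPM on ULA day 21 (SD, n = 3) and 123 ± 27.1 on ULA day 34 (n = 2). On the shaker it was 432 ± 8.21 CPM in untreated organoids, 749 ± 105 in the TGFB1 control, 296 ± 8.12 in the PA control and 369 ± 13.3 in the OA control (n = 2 each). With treatment it was 1240 ± 313 CPM for TGFB1, 1785 ± 930 for PA and 5211 ± 178 for OA. CCL20 made up the largest part of that sum with OA and PA, and CCL2 with TGFB1. CCL20 was 71.1% ± 1.15 of the members' UMIs with OA, against 29.6% ± 4.89 in its control. With PA it was 32.1% ± 5.54, against 15.7% ± 4.87 in the control, followed by CXCL1 at 26.1% ± 1.21. CCL2 was 23.0% ± 1.28 with TGFB1, against 4.33% ± 0.893 in its control.

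Ordered by group mean, CCL20 ran from 3708 CPM with OA and 599 with PA down through the TGFB1 control (169), untreated organoids (147), the OA control (110), TGFB1 (101), the PA control (46.8), ULA day 34 (15.3) and ULA day 21 (12.4). From the TGFB1 control to TGFB1 each neighbour overlapped the next, as did both ULA groups, while the libraries of OA, of PA and of the TGFB1 control stood apart from each other. CCL2 had a different order, with TGFB1 first (283 CPM) and OA last (5.75), and the TGFB1 control (32.9), PA (31.9) and ULA day 34 (24.6) overlapping in between. CXCL6 and CXCL10 also had their highest mean with TGFB1, at 232 and 4.57 CPM, but for CXCL10 the TGFB1, OA and PA libraries overlapped. The order at the top of the next genes depends on the scaling. In CPM, CXCL1 was led by PA (459 CPM) and OA (453), which overlapped, as did OA and PA for CXCL2 (234 and 187) and CXCL3 (324 and 284). CXCL5 stood apart in OA alone, at 202 CPM against 32.9 or less in every other group. CXCL8 was led by OA (241 CPM) and TGFB1 (232), whose libraries overlapped. With the TMM scaling used in the tests, OA no longer overlapped the next group for CXCL2 (331 and 298 against 137 and 240.0 with PA), CXCL3 (463 and 409 against 219.8 and 354) and CXCL8 (283 and 364 against 269 and 170.0 with TGFB1). For CXCL1 the OA libraries (601 and 615) still lay within the range of PA (303 and 626). CXCL10 was the scarcest member, at 6.34 CPM or less in every library.

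**Figure D2:**
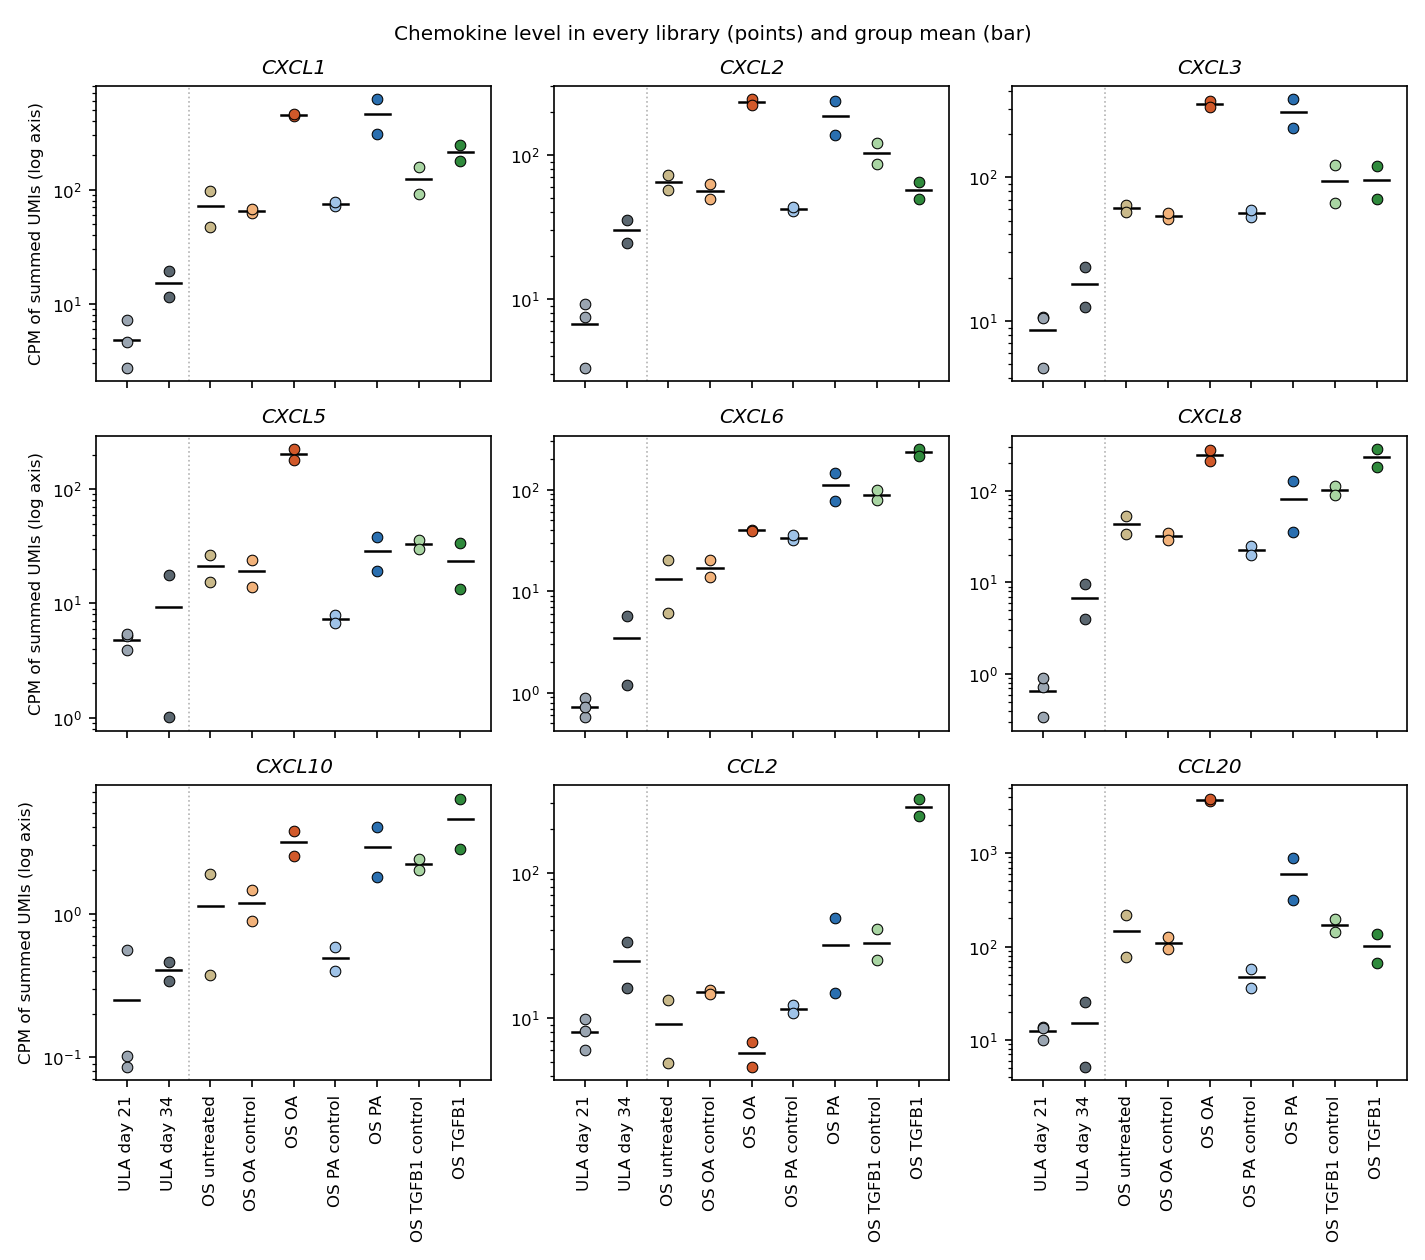
Level of each chemokine in each library (points, CPM of summed UMIs, log axis) by group, with bars at the group means. CCL20 is highest in both OA libraries (3576 and 3839 CPM), CCL2 peaks in both TGFB1 libraries, and most members are lowest in the ULA libraries.

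OA organoids held more RNA of 8 of the 9 chemokines than their control, CCL20 most of all. CCL20 measured 125 and 94.2 CPM in control replicates 1 and 2 and 3576 and 3839 CPM with OA, so the groups lay far apart. Its log2 fold change was 5.40 ± 0.66 (SE; edgeR adjusted p = 4.22e-05). The neutrophil attractants followed. CXCL5 was at 24.2 and 13.9 CPM in the control and 225 and 179 CPM with OA, and CXCL8 at 34.8 and 28.6 against 209 and 274 CPM. CXCL1 was at 62.6 and 66.9 CPM in the control and 443 and 463 with OA. In all 3 genes each OA library exceeded each control library several times over, with log2 fold changes of 3.72 ± 0.47 (CXCL5), 3.25 ± 0.48 (CXCL8) and 3.14 ± 0.41 (CXCL1) and edgeR adjusted p-values of 5.50e-05, 0.000154 and 5.95e-05. CXCL2 (49.7 and 63.4 against 244 and 224 CPM) and CXCL3 (51.3 and 56.8 against 341 and 308 CPM) rose by 2.39 ± 0.26 and 2.92 ± 0.36 on the log2 scale. CXCL6 rose less, by 1.56 ± 0.41 (edgeR adjusted p = 0.00845), from 13.8 and 20.4 to 39.9 and 39.3 CPM. CXCL10, the interferon target, rose by 1.73 ± 0.59 (edgeR adjusted p = 0.0307), from 1.47 and 0.892 to 3.79 and 2.51 CPM. CCL2, the monocyte attractant, did not pass the test. It was at 15.5 and 14.7 CPM in the control and 4.60 and 6.89 CPM with OA, with both OA libraries below both control libraries and a log2 fold change of -1.06 ± 0.51 (95% interval -2.15 to 0.03, edgeR adjusted p = 0.109).

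The 8 members called higher with OA compare with 43.3% of 19366 genes called in that comparison. Of all 19366 genes, 21.7% were called higher and 21.6% lower. The median log2 fold change was 2.92 over the members and -0.08 over all genes. CXCL6 missed the threshold without control replicate 1 (1.38, edgeR adjusted p = 0.068). CXCL10 missed it without control replicate 2 (1.36, adjusted p = 0.198) and without OA replicate 1 (1.39, adjusted p = 0.165), and with the stricter cell filter (1.53, adjusted p = 0.0918). CCL2 was called lower with OA when only those 2 groups were fitted (-1.10, edgeR adjusted p = 0.00628). The make-up of the organoids differed at the same time. All 8 mesenchymal markers fell with OA, their summed level being 99.7 to 127 CPM against 2420 to 3994 CPM in the control, while 5 of 8 epithelial and 6 of 8 hepatocyte markers rose. EPCAM-positive cells were 88.4% ± 0.0332 of cells with OA and 27.7% ± 6.55 in the control, and COL-positive cells were 1.56% ± 0.540 and 36.4% ± 1.53 (n = 2 each). In sums over all cells, fewer cells of a type and less RNA per cell cannot be told apart. The comparison within EPCAM-positive cells is given further on.

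Among genes of the same pathway, 13 of the 15 tested NF-κB feedback genes rose with OA and none fell. BIRC3, an apoptosis inhibitor and NF-κB target, rose by 4.44 ± 0.30 on the log2 scale, from a mean of 10.7 to 185 CPM. ICAM1, an adhesion molecule that leukocytes bind, rose by 3.52 ± 0.31, and TNFAIP2 by 3.25 ± 0.23. Among 12 tested upstream cytokines 6 rose and 1 fell, led by IL17C (7.35 ± 0.70), an epithelial interleukin 17, IL1B (5.01 ± 0.52) and IL1A (4.31 ± 0.37). These stayed rare in absolute terms, at means of 15.8 (IL17C), 10.6 (IL1B) and 47.1 CPM (IL1A) with OA. Of 14 receptors and adaptors upstream of NF-κB and interferon signalling, 10 rose and none fell, with IFNGR1, the interferon γ receptor, at 2.84 ± 0.33, TLR4, the lipopolysaccharide receptor, at 1.77 ± 0.43 and IFNAR1 at 1.42 ± 0.21. Among 20 other chemokines tested, 8 rose and 4 fell. CCL28, a mucosal epithelial chemokine, rose by 6.05 ± 0.61, to a mean of 13.2 CPM. CCL23 was called higher on 64 UMIs in the OA libraries against 2 in the control, and CXCL13 lower on 2 against 67. Of 12 interferon targets 3 rose and 2 fell, in opposite directions for OAS1 (3.19 ± 0.50) and for IFI44L (-6.17 ± 0.55) and IFIT1 (-2.37 ± 0.75). Of 15 dissociation stress genes 5 rose and 2 fell, and their summed level was 2715 to 3211 CPM with OA and 3179 to 3587 CPM in the control. Each of these genes was tested with edgeR over all genes, with adjusted p-values under 0.05.

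With PA the estimates of all 9 chemokines were above 0, its 2 libraries differed widely, and CXCL1, CXCL2 and CXCL3 passed the test. CXCL1 was at 72.4 and 78.1 CPM in control replicates 1 and 2 and 304 and 615 CPM with PA. CXCL2 was at 41.1 and 43.5 CPM against 137 and 236, and CXCL3 at 53.2 and 59.5 CPM against 220.1 and 348. In each of these neutrophil attractants both PA libraries lay above both control libraries. The log2 fold changes were 2.67 ± 0.40 for CXCL1, 2.20 ± 0.26 for CXCL2 and 2.39 ± 0.35 for CXCL3 (edgeR adjusted p = 0.0353, 0.0103 and 0.0353). CCL20 had the largest estimate. It was at 57.8 and 35.7 CPM in the control and 318 and 880.4 CPM with PA, and its log2 fold change was 3.73 ± 0.62 (95% interval 2.40 to 5.06, edgeR adjusted p = 0.0670). PA replicate 2 was the higher PA library for every member. CXCL8 was at 24.7 and 19.9 CPM against 35.4 and 126, CXCL6 at 31.8 and 35.6 against 77.5 and 145, and CXCL5 at 7.85 and 6.73 against 19.2 and 38.2. CCL2 was at 12.2 and 10.8 against 14.7 and 49.1 CPM, and CXCL10 at 0.581 and 0.397 against 1.81 and 4.001 CPM. These 5 had log2 fold changes of 1.55 (CCL2) to 2.84 (CXCL10) with edgeR adjusted p-values of 0.336 to 1.00. No PA library fell to the level of a control library. The share of all genes whose libraries separate in this way is not given, here or for the other comparisons.

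**Figure D3:**
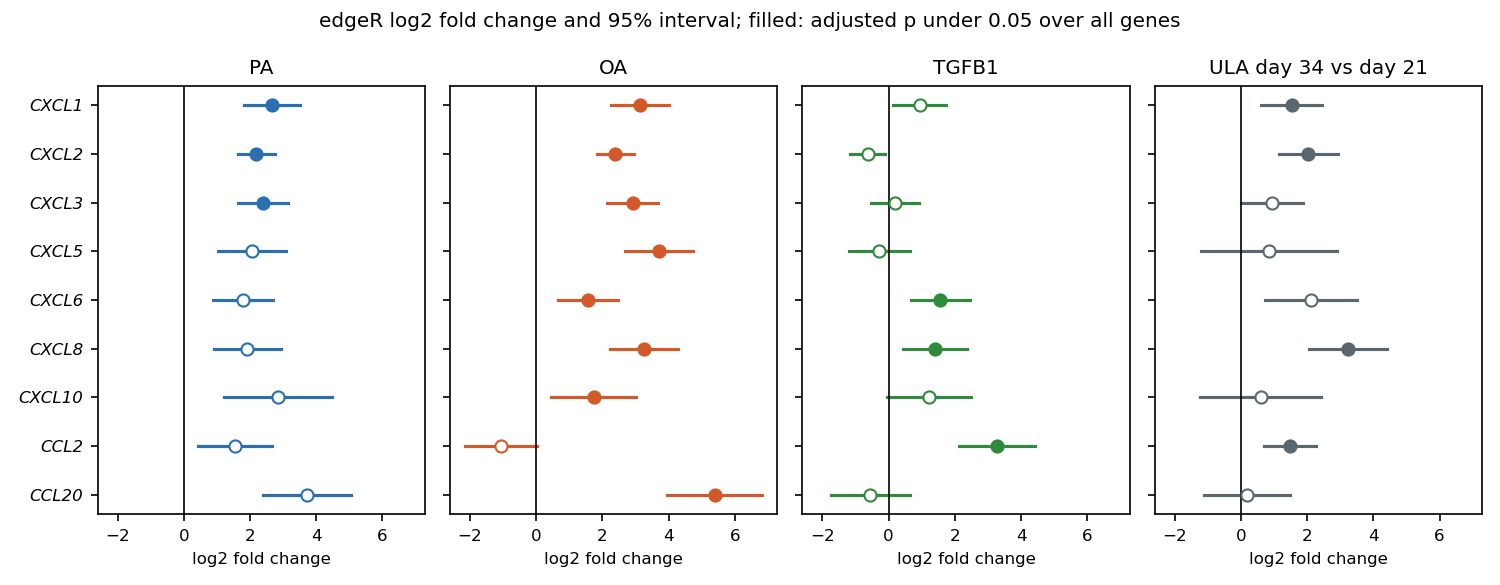
Log2 fold change (x axis) with its 95% interval for each chemokine in all cells, for PA, OA and TGFB1 against their controls and ULA day 34 against day 21; filled points have an edgeR adjusted p under 0.05. CCL20 is farthest right for OA and PA, and CCL2 is farthest right for TGFB1 and left of 0 for OA.

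The 3 members called with PA compare with 0.0465% of 19366 genes called, which is 9 genes, all higher. The median log2 fold change was 2.20 over the members and 0.02 over all genes. At an unadjusted p under 0.05 the test passed 9 of 9 members. DESeq2's Wald test called 8 after adjustment, and no alternative called more than 162 genes in all. Counts at an unadjusted p, here and further on, have no share over all genes beside them. The calls rested on single libraries. With 1 library left out, the log2 fold changes ran from 2.07 to 3.10 (CXCL1), 1.75 to 2.54 (CXCL2) and 2.02 to 2.69 (CXCL3). None of the members passed without PA control replicate 1 (the shallowest library) or without PA control replicate 2. Without PA replicate 2 only CXCL2 did. Without PA replicate 1, 5 did, adding CXCL8 (2.58, edgeR adjusted p = 0.0137) and CCL20 (4.30, adjusted p = 0.0234). With only the PA groups fitted, CCL20 passed as well (3.71, edgeR adjusted p = 0.0423). Among pathway genes, BIRC3 (2.32 ± 0.29) and TNFAIP2 (1.96 ± 0.22) rose among 15 NF-κB feedback genes, and TNF, the cytokine that drives this pathway, rose by 1.99 ± 0.31 among 12 cytokines, from a mean of 4.56 to 16.8 CPM (edgeR adjusted p = 0.0408). None of the other 20 chemokines, 8 receptors, 14 upstream receptors and adaptors, 12 interferon targets or 15 dissociation stress genes tested passed with edgeR. At an unadjusted p under 0.05, 2, 0, 0, 7 and 2 of them did. None of the 8 epithelial, 8 mesenchymal and 8 hepatocyte markers was called, and EPCAM-positive cells were 70.1% ± 4.30 of cells with PA and 61.5% ± 7.08 in its control. Of 3 tested neutrophil markers 0 were called with edgeR. Among them S100A8, which epithelia also make, was at 153 to 345 CPM with PA and 49.6 to 92.9 CPM in the control. Its part in the result was not tested.

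PA and OA were given at the same concentration, 500 µM, for a time known only for PA, and each has its own control, so the difference of their effects was tested for the 9 members (PA minus OA, in the joint fit). CCL2 alone differed, by 2.61 ± 0.73 on the log2 scale (edgeR adjusted p = 0.0226), its estimate being 1.55 with PA and -1.06 with OA. This compares with 20.5% of all genes called for that difference, 10.3% higher and 10.2% lower. In the same difference 7 of 8 mesenchymal markers were called higher (median 4.80) and 6 of 8 hepatocyte markers lower (median -2.56). The summed mesenchymal level was 99.7 to 127 CPM with OA against 2420 to 3994 in its control, and 195 to 441 with PA against 377 to 626. The part of these markers in the CCL2 difference was not tested. The call was lost without either PA control library (2.76 and 2.51, adjusted p = 0.0564 and 0.0843 for replicates 1 and 2), without PA replicate 2 (1.49, adjusted p = 0.126), without replicate 1 of the OA control (2.49, adjusted p = 0.0533) and on leaving out OA replicate 1 (2.36, adjusted p = 0.0924). For CXCL5 the difference was -1.66 (95% interval -3.02 to -0.29, edgeR adjusted p = 0.0804), for CCL20 -1.67 (-3.37 to 0.03) and for CXCL8 -1.33 (-2.69 to 0.03). For CXCL1, CXCL2 and CXCL3 it was -0.48 (-1.62 to 0.67), -0.20 (-0.96 to 0.56) and -0.53 (-1.55 to 0.48). These intervals do not show that both compounds act alike. The PA and OA libraries came from separate experiments whose file headers name different software versions, so the compound and the experiment cannot be told apart.

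TGFB1 raised CCL2 and, less, CXCL6 and CXCL8, and left CCL20 and the CXCL1 to CXCL3 group without a call. CCL2 was at 25.0 and 40.8 CPM in control replicates 1 and 2 and 323 and 243 CPM with TGFB1, with no overlap and a log2 fold change of 3.27 ± 0.53 (edgeR adjusted p = 0.000859). CXCL6 was at 78.2 and 100.1 CPM against 251 and 213, a log2 fold change of 1.56 ± 0.41 (edgeR adjusted p = 0.0164). CXCL8 was at 113 and 90.1 CPM against 284 and 181, a log2 fold change of 1.40 ± 0.45 (edgeR adjusted p = 0.0387). Both TGFB1 libraries lay above both controls for these 2 attractants. CXCL2 was lower in both TGFB1 libraries (65.0 and 49.7 CPM) than in both controls (121 and 86.1), with a log2 fold change of -0.64 ± 0.25 (edgeR adjusted p = 0.0840). CXCL1 was at 91.5 and 157 CPM against 244 and 179 (0.94 ± 0.38, edgeR adjusted p = 0.0920). With 1 library left out, its log2 fold change ran from 0.53 to 1.52. CXCL3 (66.1 and 121 against 120.3 and 70.3 CPM) and CXCL5 (35.5 and 30.2 against 33.7 and 13.3) overlapped between groups. CCL20 was lower in both TGFB1 libraries (135 and 67.1 CPM) than in both controls (143 and 195), with no call (-0.56 ± 0.55, edgeR adjusted p = 0.496), and the groups overlapped with TMM scaling (128 and 63.0 against 106 and 172). CXCL10 was at 2.02 and 2.39 CPM against 6.34 and 2.81 (1.22 ± 0.59, edgeR adjusted p = 0.154).

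The 3 members called higher with TGFB1 compare with 22.2% of 19366 genes called. Of all 19366 genes, 10.9% were called higher and 11.3% lower. The median log2 fold change was 0.94 over the members and -0.05 over all genes. Without TGFB1 control replicate 1, which had the lowest median depth per cell (1310 UMIs), or without TGFB1 replicate 1, CCL2 alone passed. CXCL6 then stood at 1.31 (edgeR adjusted p = 0.132) and 1.43 (adjusted p = 0.0996). CXCL8 lost its call when any 1 of the 4 libraries was left out, at 1.04 to 1.70, and with the stricter cell filter (1.23, adjusted p = 0.0743). Among 20 other chemokines 10 rose with TGFB1 and none fell, among them CCL7 (4.08 ± 0.95), another monocyte attractant, CCL5 (4.37 ± 1.05) and PPBP (3.73 ± 0.61), all at 4.88 CPM or less. Of 12 cytokines 7 rose, with IL11 (3.47 ± 0.40), a cytokine tied to fibrosis, going from a mean of 2.48 to 25.9 CPM, CSF2 at 3.51 ± 0.66 and IL1A at 2.76 ± 0.37. Of 15 NF-κB feedback genes 3 rose and 1 fell: IER3 (1.44 ± 0.30) and the inhibitor TNFAIP3 (1.28 ± 0.26) were among those that rose, and NFKBIZ (-1.39 ± 0.26) fell. Of 12 interferon targets 5 rose, IFI44L by 2.19 ± 0.40, and 1 fell. None of 8 receptors passed with edgeR (3 at an unadjusted p under 0.05). Of 15 dissociation stress genes 2 rose and 4 fell, with a summed level of 2639.8 to 2905 CPM against 3263 to 4685 CPM in the control. Of 8 epithelial markers 3 rose and 1 fell. Of 8 mesenchymal markers 4 rose, with a summed level of 1487 to 1846 CPM against 603 to 621 CPM. Of 8 hepatocyte markers 5 fell and 1 rose, but their summed level was 4541 to 5390 CPM with TGFB1 and 2631 to 3942 CPM in the control. COL-positive cells were 9.05% ± 0.716 of cells with TGFB1 and 4.24% ± 0.460 in the control. The part of these lists in the chemokine results was not tested.

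On ULA plates the chemokines were scarce, and 4 were called higher on day 34 than on day 21. CXCL8 was at 0.725, 0.338 and 0.900 CPM in day 21 replicates 1 to 3 and 3.94 and 9.53 CPM in day 34 replicates 1 and 2 (log2 fold change 3.23 ± 0.50, edgeR adjusted p = 0.00846). CXCL2 was at 9.24, 3.32 and 7.50 CPM against 35.3 and 24.6 (2.04 ± 0.39, edgeR adjusted p = 0.0157). The groups did not overlap in either gene. CXCL1 was at 7.20, 2.75 and 4.59 CPM against 11.4 and 19.2 (1.54 ± 0.39, edgeR adjusted p = 0.0397), and CCL2 at 6.07, 9.80 and 8.16 CPM against 33.2 and 16.0 (1.48 ± 0.34, edgeR adjusted p = 0.0277). CXCL3 (0.95 ± 0.40) and CXCL6 (2.11 ± 0.59) did not pass, at edgeR adjusted p-values of 0.147 and 0.0528. CXCL6 was at 0.883, 0.573 and 0.730 CPM against 1.18 and 5.70. With 1 library left out, its log2 fold change ran from 0.54 to 2.84. CXCL5 and CCL20 split the day 34 libraries. CXCL5 was at 1.00 CPM in replicate 1 and 17.7 in replicate 2 around day 21 values of 3.92 to 5.35, and CCL20 at 5.14 and 25.5 around 9.97 to 13.8. The share of EPCAM-positive cells differed between the same libraries, at 0.532% (23 cells) in day 34 replicate 1 and 6.01% in replicate 2, against 11.7% to 18.8% on day 21. EPCAM-positive cells held 0% of CXCL5 UMIs and 3.00% of CCL20 UMIs in replicate 1, and 43.7% and 49.9% in replicate 2, beside 0.338% and 5.19% of all UMIs. Cells with EPCAM and collagen UMIs were 49.6% and 59.7% of cells in day 34 replicates 1 and 2, against 29.8% to 42.5% on day 21. In replicate 1 they held 38.5% of CXCL5 and 43.25% of CCL20 UMIs, beside 55.3% of all UMIs. Summed epithelial markers were at 4808 to 6041 CPM on day 34 and 4121 to 5710 CPM on day 21. The part of these shares in the ULA results was not tested. With 15.6% of 22261 genes called (8.43% of the 22261 higher and 7.19% lower), 4 members were called. None was called without day 21 replicate 3, 1 was without day 21 replicate 1 and 2 were without day 21 replicate 2, while 8 were higher without day 34 replicate 1, and without day 34 replicate 2 there were 6, of which 4 were higher and 2 (CXCL5 and CCL20) lower. Without day 34 replicate 1, CXCL5 was at 1.76 and CCL20 at 0.92 on the log2 scale, and without day 34 replicate 2 they were at -2.41 and -1.42.

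Dissociation differed between the ULA days: on day 34 a wash was added and trypsin acted 10 minutes longer, and dissociation stress genes moved with the day. Of 15 such genes 6 rose and none fell, ATF3 by 2.66, and their summed level was 2974 to 4694 CPM against 687 to 1440 CPM. The part of dissociation in the chemokine result was not tested. Of 15 NF-κB feedback genes 6 rose and none fell, TNFAIP3 by 2.17 from a mean of 5.62 to 27.8 CPM. Of 8 tested cytokines 4 rose and 2 fell. TNF was called higher (3.71) at means of 0.0590 and 0.869 CPM and IL1B (2.95) at 0.119 and 1.03 CPM, while IL18 fell by 3.13 from 4.38 to 0.539 CPM. Of 12 other chemokines 2 rose, CCL7 (4.86) and CX3CL1 (1.51), and CXCL16 fell (-1.28). None of the hepatocyte markers rose and 5 of 8 fell. In the neutrophil list S100A8 (7.87), which epithelia also make, and S100A9 (3.03) rose, 2 called of 3 tested. Over all libraries MPO had 0 UMIs, ELANE 1 and FCGR3B 1, and CSF3R stayed at 2.21 CPM or less. The OA control and untreated OS organoids, both without OA, gave no call among the members with edgeR (0 at an unadjusted p under 0.05 and 0 with DESeq2, against 0.573% of all genes called, 0.0826% higher and 0.491% lower). Their log2 fold changes were -0.30 (CCL20; 95% interval -1.49 to 0.89) to 0.89 (CCL2; -0.20 to 1.97).

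The sources of 8 of the 9 chemokines differed between the 2 cell classes. Within the OS libraries, CCL20 was higher in EPCAM-positive than in COL-positive cells by 4.14 ± 0.27 on the log2 scale, and CXCL8 (2.23 ± 0.22), CXCL3 (2.15 ± 0.21), CXCL1 (1.79 ± 0.15), CXCL2 (1.67 ± 0.19), CXCL5 (1.55 ± 0.27) and CXCL6 (1.21 ± 0.26) were higher there too. CCL2 went the other way over the OS groups together, at -1.28 ± 0.45 (edgeR adjusted p = 0.0216), but not with TGFB1, where it was at 372 and 265 CPM in EPCAM-positive cells and 73.8 and 84.2 CPM in COL-positive cells. CXCL10 was at -1.42 ± 0.65 (adjusted p = 0.0691), and -1.79 (adjusted p = 0.0165) without TGFB1 replicate 1. The library was a block in this fit. Of 18747 genes tested, 58.2% were called, made up of 33.2% higher and 25.0% lower. ULA libraries gave the same directions for all 9, with CCL20 at 6.09 ± 0.28, CXCL5 at 5.29 ± 0.14 and CCL2 at -4.31 ± 1.06 (51.8% of 19879 genes called, 27.3% higher). The ULA call of CCL2 was lost without any 1 day 21 library (-4.08 to -3.73, adjusted p = 0.0618 to 0.0823) and that of CXCL6 without day 21 replicate 3 (2.42, adjusted p = 0.0936). On ULA day 21, CCL2 was at 0.0840, 0.298 and 0.268 CPM in EPCAM-positive cells (2, 4 and 6 UMIs) and at 19.4, 19.1 and 20.8 CPM in COL-positive cells. Those COL-positive cells held 65.4% to 84.4% of all CCL2 UMIs of that day.

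Over the 17 libraries with at least 50 cells of each class, the ratio of the EPCAM-positive to the COL-positive level had a median of 22.6 for CCL20 (5.20 to 136), with the EPCAM-positive cells higher in all 17. The medians were 6.01 for CXCL8, 4.12 for CXCL3, 3.32 for CXCL2, 3.31 for CXCL1, 3.10 for CXCL5 and 2.79 for CXCL6. For CXCL10 the median was 0.421 and for CCL2 0.258, with a ratio above 1 in 6 and 3 libraries. For CCL2 these were both TGFB1 libraries and PA control replicate 1, which had 4 CCL2 UMIs in its COL-positive cells. Where COL-positive cells held 0 UMIs no ratio could be formed, and the library is missing from that gene's median and count. This was so for CXCL10 in PA control replicate 1 (4 UMIs, all in EPCAM-positive cells), CXCL8 in ULA day 21 replicate 3 and CXCL6 in OA replicate 1. Markers that did not define the classes separated them as well. The epithelial genes had median ratios from 3.82 (KRT8) and 4.05 (KRT18) up to 20.3 (ELF3), with CDH1 and KRT19 at 14.5 and 11.3. The mesenchymal genes COL1A1 and PDGFRB were at 0.0126 and 0.00753. Free RNA from lysed cells reaches every droplet, and its part in the lower level of each class was not tested. In the OA libraries 95.9% and 94.8% of CCL20 UMIs lay in EPCAM-positive cells and 0.0165% and 0.0135% in COL-positive ones, beside 92.7% and 93.4%, and 0.657% and 0.448%, of all UMIs.

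**Figure D4:**
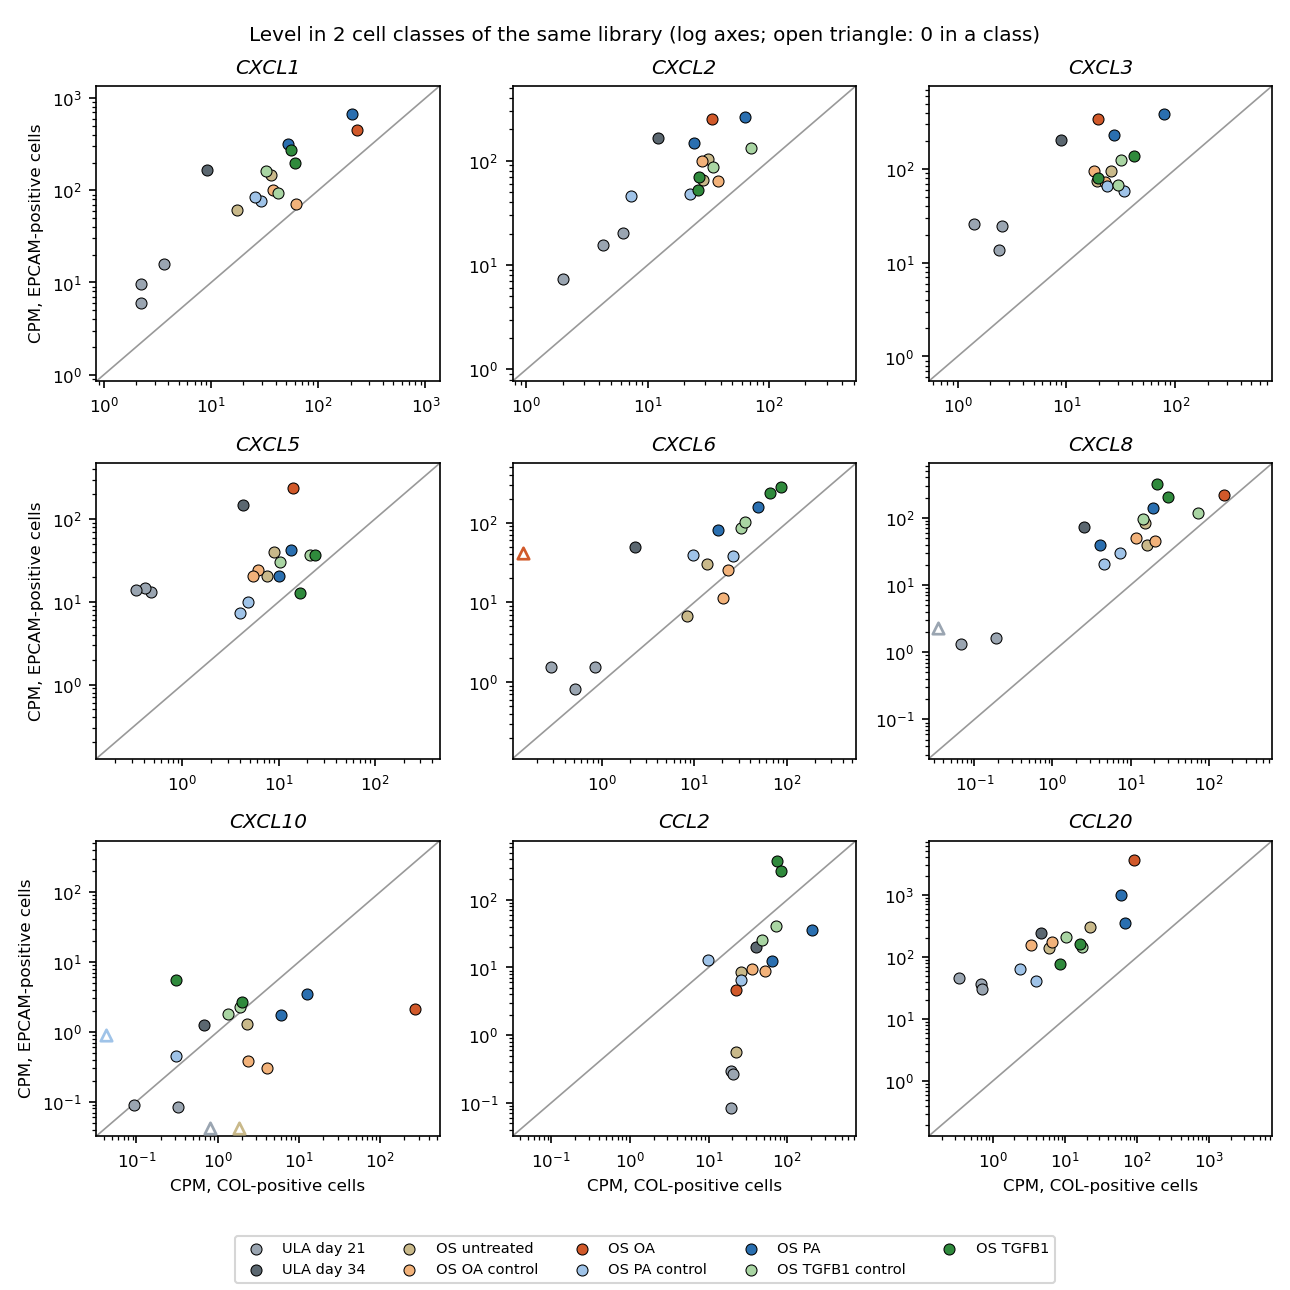
Level in EPCAM-positive cells (y axis, CPM, log) against the level in COL-positive cells of the same library (x axis, CPM, log), 1 panel a chemokine; points are the 17 libraries with at least 50 cells of each class, the line marks equal levels and open triangles mark 0 in a class. All 17 CCL20 points lie above the line, and 14 of 17 CCL2 points lie below it.

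The treatments were also compared within EPCAM-positive cells. With OA, the log2 fold changes of CXCL1, CXCL2, CXCL3, CXCL5, CXCL6, CXCL8 and CCL20 were smaller there than over all cells, and that of CXCL10 was larger (3.04 against 1.73). These differences were not tested. Other genes moved in this class with OA as well. In either direction, 7 of 8 hepatocyte, 4 of 6 mesenchymal and 3 of 8 epithelial markers and 3 of 15 dissociation stress genes were called. Cells with UMIs of both kinds, left out here, held 39.1% and 46.6% of UMIs in the control and 6.09% and 5.42% with OA. The part of this in the chemokine changes was not tested. CCL20 was at 174 and 156 CPM in the control and 3700 and 3897 CPM in treated EPCAM-positive cells, a log2 fold change of 4.75 ± 0.60 (edgeR adjusted p = 6.91e-05). CXCL5 rose by 3.44 ± 0.48, CXCL10 by 3.04 ± 0.80 (from 0.304 and 0.377 to 2.13 and 2.62 CPM), CXCL1 by 2.68 ± 0.42, CXCL8 by 2.61 ± 0.48, CXCL3 by 2.21 ± 0.35, CXCL2 by 1.80 ± 0.29 and CXCL6 by 1.43 ± 0.48, making 8 called members against 35.9% of 17527 genes. CCL2 was at 8.93 and 9.41 CPM against 4.61 and 6.27, with no call (-0.53 ± 0.67). CXCL6 lost its call without OA control replicate 1 (1.04, adjusted p = 0.212) or either OA library (1.37 and 1.51), and CXCL10 without either control library (2.99 and 3.10). With PA, 4 members were called against 0.103% of genes: CCL20, from 64.0 and 40.4 to 357 and 976 CPM (3.72 ± 0.57, edgeR adjusted p = 0.0305), CXCL1 (2.68 ± 0.43), CXCL3 (2.36 ± 0.36) and CXCL2 (2.16 ± 0.30). With 1 library left out, these ran from 2.81 to 4.28 (CCL20), 2.04 to 3.13 (CXCL1), 1.95 to 2.69 (CXCL3) and 1.69 to 2.52 (CXCL2). None was called without either PA control library or without PA replicate 2, and 5 without PA replicate 1. With TGFB1, CCL2 rose from 25.1 and 41.0 to 372 and 265 CPM (3.43 ± 0.69, edgeR adjusted p = 0.00256), CXCL6 by 1.64 ± 0.47 and CXCL8 by 1.52 ± 0.46, 3 called members against 25.0% of genes. CCL2 alone was called without TGFB1 control replicate 1 or TGFB1 replicate 1. In EPCAM-positive cells with TGFB1, 6 of 8 hepatocyte, 5 of 8 epithelial and 1 of 6 mesenchymal markers were called in either direction. So were 7 of 15 dissociation stress genes, while with PA none of these 4 lists held a call. Their part in the chemokine results was not tested.

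In COL-positive cells fewer members were called. The cells were far fewer in each of these groups except the OA control (3087 COL-positive and 2481 EPCAM-positive cells). With TGFB1 none was called with edgeR (2 at an unadjusted p under 0.05, 0 with DESeq2, 0.0211% of 14189 genes called, 0.0141% higher and 0.00705% lower): CCL2 was at 48.4 and 71.0 CPM in the control and 73.8 and 84.2 CPM with TGFB1 (0.60 ± 0.44). The CCL2 effect of TGFB1 was larger in EPCAM-positive cells by 2.74 ± 0.47 (edgeR adjusted p = 0.000497), which was 1 of 3 called differences against 6.32% of 18747 genes. The others were CXCL8 (1.52 ± 0.44, adjusted p = 0.0401) and CXCL5 (-1.18 ± 0.35, adjusted p = 0.0454). CXCL8 lost its call without TGFB1 control replicate 1 (0.60) or TGFB1 replicate 1 (1.03) and with the classes set after thinning (0.31, adjusted p = 0.762), and CXCL5 without TGFB1 control replicate 2 (-0.81) or TGFB1 replicate 2 (-0.61). DESeq2 called none of the 3. EPCAM-positive cells held 82.9% and 82.6% of the CCL2 UMIs of the TGFB1 libraries, and 71.8% and 75.9% of all their UMIs.

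With PA, none of the members was called in COL-positive cells with edgeR, where none of 14189 genes was (0%). At an unadjusted p under 0.05 the test passed 7 members. DESeq2 called 4 after adjustment, and no alternative called more than 81 genes in all. CCL20 was at 2.43 and 3.96 CPM (1 and 13 UMIs) in the control and 68.6 and 60.8 CPM with PA, and CCL2 at 9.72 and 25.6 against 64.6 and 205 CPM. Both PA libraries exceeded both controls in these 2 genes, with log2 fold changes of 4.11 ± 0.68 and 2.70 ± 0.50 (edgeR adjusted p = 0.145 and 0.157). CCL2 passed without PA replicate 1 (3.26, adjusted p = 0.0268), as did CXCL1 (2.96, adjusted p = 0.0344). No difference of the PA effect between the classes was called among the members with edgeR (3 at an unadjusted p under 0.05, 0 with DESeq2, 0.0107% of genes called). The COL-positive OA group had 60 cells in replicate 1 and 38 in replicate 2, and the latter fell under the minimum of 50 and was left out of the fits, so 1 OA library stood against 2 controls and is assumed to vary like the other groups. There CCL20 (3.99 ± 0.70), CXCL8 (3.09 ± 0.61) and CXCL10 (6.22 ± 0.48) were called higher, against 3.76% of genes (2.30% higher, 1.46% lower). CXCL8 missed the threshold without OA control replicate 2 (2.76, adjusted p = 0.0614). Of the 96 CXCL10 UMIs in the 60 cells, 86 came from 1 cell, and the 38 cells left out held none. The 56 CXCL8 UMIs in the 60 cells came from 4 cells, 23 of them from 1 cell, and the 32 CCL20 UMIs from 16 cells. Epithelial and mesenchymal markers also differed between the COL-positive cells of OA and its control, and their part was not tested. The difference of the OA effect between classes was called for CXCL2 (2.24), CXCL3 (2.71), CXCL5 (2.74) and CXCL10 (-3.09), against 8.35% of genes called and a median of 0.80 over all genes. For CXCL2, CXCL3 and CXCL5 it rested on 12, 7 and 5 UMIs in the 60 COL-positive OA cells (33.8, 19.7 and 14.1 CPM). The 38 cells left out were at 102 CPM for CXCL2, 21.4 for CXCL3 and 72.6 for CXCL5, against control values of 38.1 and 28.2, 22.8 and 17.7, and 6.11 and 5.38 CPM. The CXCL10 difference lost its call without OA control replicate 1 (-3.93) or replicate 2 (-2.72). For CXCL6 the fitted difference was 13.07, but its COL-positive OA level rested on 0 UMIs in the 60 cells. This allows up to 8.44 CPM against 20.5 and 23.3 CPM in the control. The 38 cells left out held 33 CXCL6 UMIs, 31 of them in 1 cell.

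The share of cells with at least 1 UMI of a chemokine was also counted. Such a share does not tell expressing cells from cells that took up free RNA, and shares in COL-positive cells are given beside it. To compare groups of unequal depth each cell was thinned to 1500 UMIs, which left out shallower cells: 425 of 5581 EPCAM-positive cells with OA, 153 of 2481 in its control, 941 of 11179 with PA, 898 of 5628 in its control, 177 of 9457 with TGFB1 and 2390 of 11998 in its control. CCL20 was then seen in 69.1% ± 2.12 of EPCAM-positive cells with OA and 8.86% ± 0.862 in the control, and before thinning in 83.4% and 20.8%. In COL-positive cells it was seen in 8.50% ± 3.70 with OA (88 cells over both libraries) and 0.716% ± 0.334 in the control. Their median depth was 5182.5 and 3885.5 UMIs in OA replicates 1 and 2, against 10339.5 and 8506 in EPCAM-positive cells. With PA the thinned CCL20 share was 24.8% ± 8.22 of EPCAM-positive cells against 3.69% ± 1.81 in the control, and before thinning 36.3% and 6.56%. In COL-positive cells it was 4.48% ± 1.67 with PA and 0.760% ± 0.165 in the control, and before thinning 9.73% and 1.17%. With TGFB1 the CCL2 share rose in value from 2.15% ± 0.0559 to 18.5% ± 3.15 of EPCAM-positive cells (unthinned 3.06% and 32.1%), while in COL-positive cells it was 7.16% ± 2.19 and 9.94% ± 2.58. These shares are descriptions over 2 libraries a group, with no test.

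UMIs of 1 or more and of 2 or more of the chemokines were counted in the same way. Thinned to 1500 UMIs, 77.8% ± 3.23 of EPCAM-positive cells had a UMI of at least 1 member with OA and 51.2% ± 3.53 of at least 2, against 24.9% ± 3.53 and 9.81% ± 1.27 in the control. With PA these shares were 52.3% ± 8.77 and 31.1% ± 9.41, against 21.2% ± 0.0503 and 7.19% ± 0.917. With TGFB1 they were 53.5% ± 6.45 and 26.3% ± 5.83, against 33.6% ± 1.03 and 14.3% ± 0.215. On ULA day 21 they were 7.87% ± 1.66 and 1.63% ± 0.139 (n = 3). In COL-positive cells the share with at least 2 was 9.04% ± 0.308 with OA against 2.91% ± 0.728 in its control. The OA value rests on only 54 and 34 cells in replicates 1 and 2. The same share was 6.81% ± 3.93 with PA against 2.93% ± 0.812 and 7.09% ± 1.46 with TGFB1 against 4.38% ± 1.76. The part of free RNA in these shares was not tested.

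**Figure D5:**
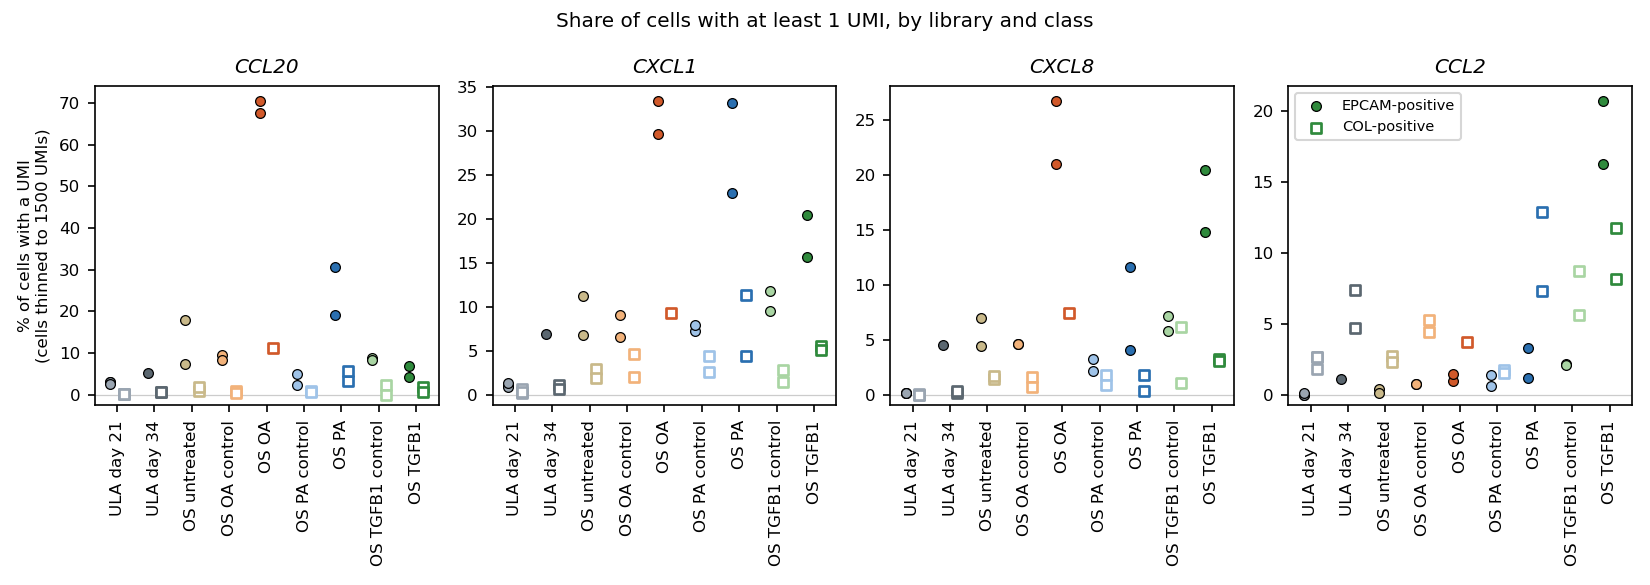
Percent of cells with at least 1 UMI of CCL20, CXCL1, CXCL8 or CCL2 after thinning each cell to 1500 UMIs (y axis), by group; filled circles are EPCAM-positive and open squares COL-positive cells of 1 library with at least 50 cells of the class. CCL20 is highest in EPCAM-positive cells with OA (mean 69.1%) and CCL2 in EPCAM-positive cells with TGFB1 (mean 18.5%).

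The receptors that read these chemokines were rarely detected in the organoids. Over all 19 libraries CXCR1 had 1 UMI, CXCR2 45, CXCR3 22, CCR2 2 and CCR6 531, and 16 of 22 receptor genes stayed under 1 CPM in every library. CCR6, the CCL20 receptor, was called higher with OA (2.57 ± 0.53, edgeR adjusted p = 0.00175), at a mean of 2.95 CPM against 0.626, and ACKR4, a scavenger receptor, rose by 3.26 ± 0.64. CCR10 fell by 2.45 with OA, so 3 of 8 tested receptors rose and 2 fell there. Leukocyte markers were similarly rare: PTPRC, the pan-leukocyte gene, had 34 UMIs over all libraries, CD14 24, CD3E 47 and NKG7 8, and 8 of 12 leukocyte markers stayed under 1 CPM in every library. LYZ and CD68, which other cells also make, accounted for most of that list, at up to 571 and 82.1 CPM. Of the 4 leukocyte markers with enough UMIs to test, CD68 (2.90 ± 0.34) and FCER1G (2.51 ± 0.40) rose with OA and none fell. CD68 was at 10.2 and 15.3 CPM in the control libraries and 70.5 and 82.1 CPM with OA, and FCER1G at 1.99 and 2.85 against 9.04 and 13.0 CPM. PTPRC, CD14, TYROBP and NKG7 had 0 UMIs in both OA libraries. The part of these markers in the chemokine result was not tested.

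The genes whose pattern was most like that of the 9 chemokines over the 14 OS libraries were ICAM1 (Pearson r = 0.907), LCN2 (0.890), PTP4A2 (0.890), EBI3 (0.888) and PLSCR1 (0.885). The measure was the correlation with the mean standardised log2(CPM + 1) of the members over 19357 candidate genes. It is a description of 14 libraries that fall into 7 groups, share their treatments and differ in depth.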

How the data were processed

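The deposited matrices hold counts, whole UMIs per gene and cell barcode from 10x 3′ v3 libraries, made by the authors and not normalized. Cell Ranger 3.0.2, bcl2fastq, Scanpy and GRCh38 are named, per the submitters' processing notes. Per the file headers, the OA, OA control and untreated matrices came from version 6.0.2 and the others from 3.0.2. The 9 members and the gene lists were chosen with earlier results of these data known.

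Kept cells had at least 500 genes and at most 20% mitochondrial UMIs. The median depth of kept cells ran from 1310 to 14304 UMIs over the libraries, and a cell of more UMIs is more likely to pass a gate of 1 UMI. UMIs were summed per library, or per library and class where a class had at least 50 cells. This left out the EPCAM-positive cells of ULA day 34 replicate 1 (23 cells) and the COL-positive cells of OA replicate 2 (38 cells). Possible doublets stayed in and were removed as an alternative (the highest Scrublet scores, 0.8% per 1000 barcodes).

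Sums were tested with edgeR 4.0.16 (R 4.3.3): TMM scaling, filterByExpr, quasi-likelihood test, Benjamini-Hochberg adjustment over all genes and a threshold of 0.05. The 14 OS libraries were fitted jointly and the 5 ULA libraries separately. Comparisons between classes had the library as a block. SEs were the log2 fold change over the root of F. The test was also run on simulated data, and the outcome is not given here. Cells were classed before thinning. A zero count was given a floor of 3 counts, and it covers counting error only.

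The genes named were the 9 members. For each pathway list they were up to 3 called genes with the largest change or, with none called, the 2 with the highest mean level. The 5 genes most like the members were added. S100A8 and the receptor, leukocyte and neutrophil totals were chosen after their values were seen. Alternatives were DESeq2 1.42.0 size factors and its Wald test, no filter on low counts, only the groups compared, a replicate block, each replicate left out, a stricter cell filter (at least 1000 genes, at most 10% mitochondrial UMIs), high doublet scores removed, a gate of 2 UMIs and a gate after thinning to 1500 UMIs.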

Additional observations from a re-analysis of the deposited data

Results flagged for a closer look

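The effects of PA and OA on CCL2, the monocyte attractant, differed by 2.609 on the log2 scale in the joint fit (edgeR adjusted p = 0.0226). With 1 library left out the difference ran from 1.49 to 3.23. PA and OA came from separate experiments, so compound and experiment cannot be told apart. In the same difference 7 of 8 mesenchymal markers were called higher (median 4.80), and their part in it was not tested.

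The OA effect differed between EPCAM-positive and COL-positive cells for 5 members. The difference was 2.242 for CXCL2, 2.714 for CXCL3 and 2.739 for CXCL5, with COL-positive OA values from 1 library and 12, 7 and 5 UMIs. The OA library left out for its 38 COL-positive cells had higher levels there for CXCL2 (102 against 33.8 CPM) and CXCL5 (72.6 against 14.1 CPM). For CXCL10 it was -3.087, the larger effect lying in COL-positive cells, where 86 of 96 UMIs came from 1 cell. For CXCL6 the fitted difference of 13.07 rests on 0 UMIs in 60 COL-positive OA cells and is not a measure of size.

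The TGFB1 effect was larger in EPCAM-positive cells for CCL2 (2.735) and CXCL8 (1.516) and lower there for CXCL5 (-1.181). With 1 library left out, CXCL8 ran from 0.60 to 2.36 (edgeR adjusted p up to 0.689) and CXCL5 from -1.72 to -0.61 (up to 0.538), and DESeq2 called none of the 3. Each of these differences was an interaction term tested with edgeR over all genes.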

How the results depend on the processing

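Of 1399 log2 fold changes computed under alternatives, 1215 kept their direction and side of the threshold, 98 lost a call, 72 gained one and 14 reversed. Of 130 counts of called members under alternatives other than leaving out a replicate, 103 were equal or within 1.5 times. The causes were not tested. With PA, DESeq2's Wald test called 8 members, no filter on low counts 9 and the replicate block 1. With no filter, TGFB1 gave 5 called members, the OA control against untreated organoids 1 and PA minus OA 4. PA minus OA gave 2 with DESeq2's Wald test and 2 with only the groups compared. Between ULA days the stricter cell filter left 2 and the replicate block 0. In EPCAM-positive cells no filter gave 9 for PA and 5 for TGFB1, and the replicate block 0 for PA. In COL-positive cells PA gave 4 with DESeq2's Wald test, 5 with no filter, 1 with the stricter filter, 2 with a gate of 2 UMIs, 1 with the replicate block and 3 with only the groups compared. OA gave 5 there with no filter, with the gate after thinning and with only the groups compared, and TGFB1 gave 1 with no filter. For differences between classes, no filter gave 1 for PA, DESeq2's Wald test 3 for OA and 0 for TGFB1, and DESeq2 size factors 1 for TGFB1.

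Leaving out each replicate in turn, the number of members called was 0 to 5 with PA, 7 to 8 with OA, 1 to 3 with TGFB1, 0 to 2 for PA minus OA and 0 to 8 between ULA days. In EPCAM-positive cells it was 0 to 5 with PA, 6 to 7 with OA and 1 to 4 with TGFB1, and in COL-positive cells 0 to 2 with PA and 2 to 3 with OA. None of the reversals concerned a member that had passed the test with all libraries. The range was -0.26 to 0.84 for CXCL3 and -1.10 to 0.25 for CXCL5 with TGFB1. For PA minus OA it was -0.64 to 0.15 for CXCL2 and -0.31 to 0.61 for CXCL6. Between ULA days it was -2.41 to 1.76 for CXCL5 and -1.42 to 0.92 for CCL20. In EPCAM-positive cells with TGFB1 it was -0.11 to 1.00 for CXCL3, -1.18 to 0.36 for CXCL5 and -1.03 to 0.10 for CCL20.

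The deviations of same-numbered libraries correlated at r = 0.0947 for PA and its control, 0.0383 for OA and -0.225 for TGFB1. For the OA control and untreated organoids r was -0.451, and for ULA -0.166 and -0.272. With 2 pairs a comparison, these values cannot tell whether same-numbered libraries share a batch. In the PA experiment replicate 1 was the shallower library of both groups (median 1747 and 2549 UMIs a cell, against 7058 and 5990). With the replicate block CXCL5 and CCL20 were at -0.17 and -0.15 between ULA days. Crossed pairings, chosen after seeing the data, called 4 members with TGFB1 and 0 between the OA control and untreated organoids.

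The number of all genes called with PA was 9 (0 to 162 over the alternatives), with OA 8378 (5171 to 10547), with TGFB1 4295 (1704 to 5582), for PA minus OA 3971 (2112 to 4918), between ULA days 3476 (0 to 7166) and between the OA control and untreated organoids 111 (0 to 702). Within EPCAM-positive cells it was 18 (0 to 126) for PA, 6300 (3260 to 8586) for OA and 4374 (1888 to 5460) for TGFB1, and in COL-positive cells 0 (0 to 81), 534 (232 to 2294) and 3 (0 to 1121). CXCL10 was at 6.34 CPM or less in every library, and the COL-positive OA values rest on 98 cells in all, 60 of them in the fits.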
